A study of Canis lupus familiaris with 5 samples.

Results

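Each heartbeat is driven by calcium that leaves the sarcoplasmic reticulum of the cardiomyocyte through the ryanodine receptor and is then pumped back by the calcium ATPase SERCA2. Phospholamban and sarcolipin are small membrane proteins that hold this pump back, calsequestrin and sarcalumenin bind calcium inside the store, triadin ties calsequestrin to the release channel, and S100A1 is a calcium sensor that binds both the pump and the channel. The balance between pump and phospholamban is a much studied property of failing hearts, because it sets how fast the muscle relaxes. Transcripts of 8 such genes, ATP2A2 (SERCA2), PLN (phospholamban), SLN (sarcolipin), RYR2 (the cardiac ryanodine receptor), CASQ2 (cardiac calsequestrin), TRDN (triadin), SRL (sarcalumenin) and S100A1, were examined in failing and control dog myocardium. Every probe set whose only gene symbol in the platform annotation was one of these was taken, which gave 17 of the 4601 probe sets that are not array controls, for 8 of 2416 named genes. A probe set is a group of short probes read together as 1 value. Whether each probe set matches only 1 transcript was not tested. PLN and SRL had 1 probe set each, SLN, RYR2 and S100A1 had 2 each, and ATP2A2, CASQ2 and TRDN had 3 each.

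The 5 arrays comprised 3 of failing myocardium (failing 1a, 1b and 2a), from dogs with congestive heart failure, and 2 of control myocardium (control 1a and 2a). RNA of 3 dogs went into each of 4 of the samples as a pool, while nothing was said of the source of control 1a. The cause and duration of heart failure, the breed, the age, any drug and the part of the heart were not given in the sources used here. Nor do they say if failing 1a and 1b held different RNA or were 2 hybridisations of one pool, so the p-values reflect a spread between arrays that may be technical. In bulk tissue, fewer cells of a type and less RNA per cell cannot be told apart.

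Values were linear intensities scaled to a trimmed mean of 800 per array. Between 34.7% and 39.9% of them were negative on each array, and 8 of the 17 calcium cycling probe sets had at least 1 array below the floor of 20 used here, against 58.2% of all 4601. Failing 2a stood apart from the other failing arrays. Over the 2301 probe sets bright enough to be tested, the median absolute log2 difference between failing 2a and 1a was 0.86. It was 0.32 between failing 1b and 1a and 0.42 between the control arrays. From control 1a and 2a, failing 2a differed by 0.94 and 0.88, and failing 1a by 0.50 and 0.53. Differences of the tested calcium cycling probe sets are therefore also given without failing 2a. Of 16 cardiomyocyte marker genes 12 were on the array, and 11 of these were bright enough to be tested. The exception was MYH7, whose probe sets were mostly below 0. The probes follow human sequences, so signals of different probe sets are not compared as levels, and a low signal need not mean a low transcript.

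None of the 8 genes passed the adjusted test for a difference between failing and control myocardium, and the pump and its inhibitor PLN did not move in a common way over the 3 failing arrays. The brighter S100A1 probe set and the brightest TRDN probe set were lower on every failing array than on either control array. On average they were 0.567-fold and 0.729-fold. The dimmer S100A1 probe set did not follow. The brighter RYR2 probe set was higher on every failing array, on average 1.58-fold. The brightest ATP2A2 probe set was several times brighter on failing 1a and 1b than on the control arrays, but not on failing 2a. PLN was brighter than both control arrays on failing 2a alone. The PLN to ATP2A2 ratio was accordingly lower than control on failing 1a and 1b and higher than control on failing 2a.

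**Figure D1:**
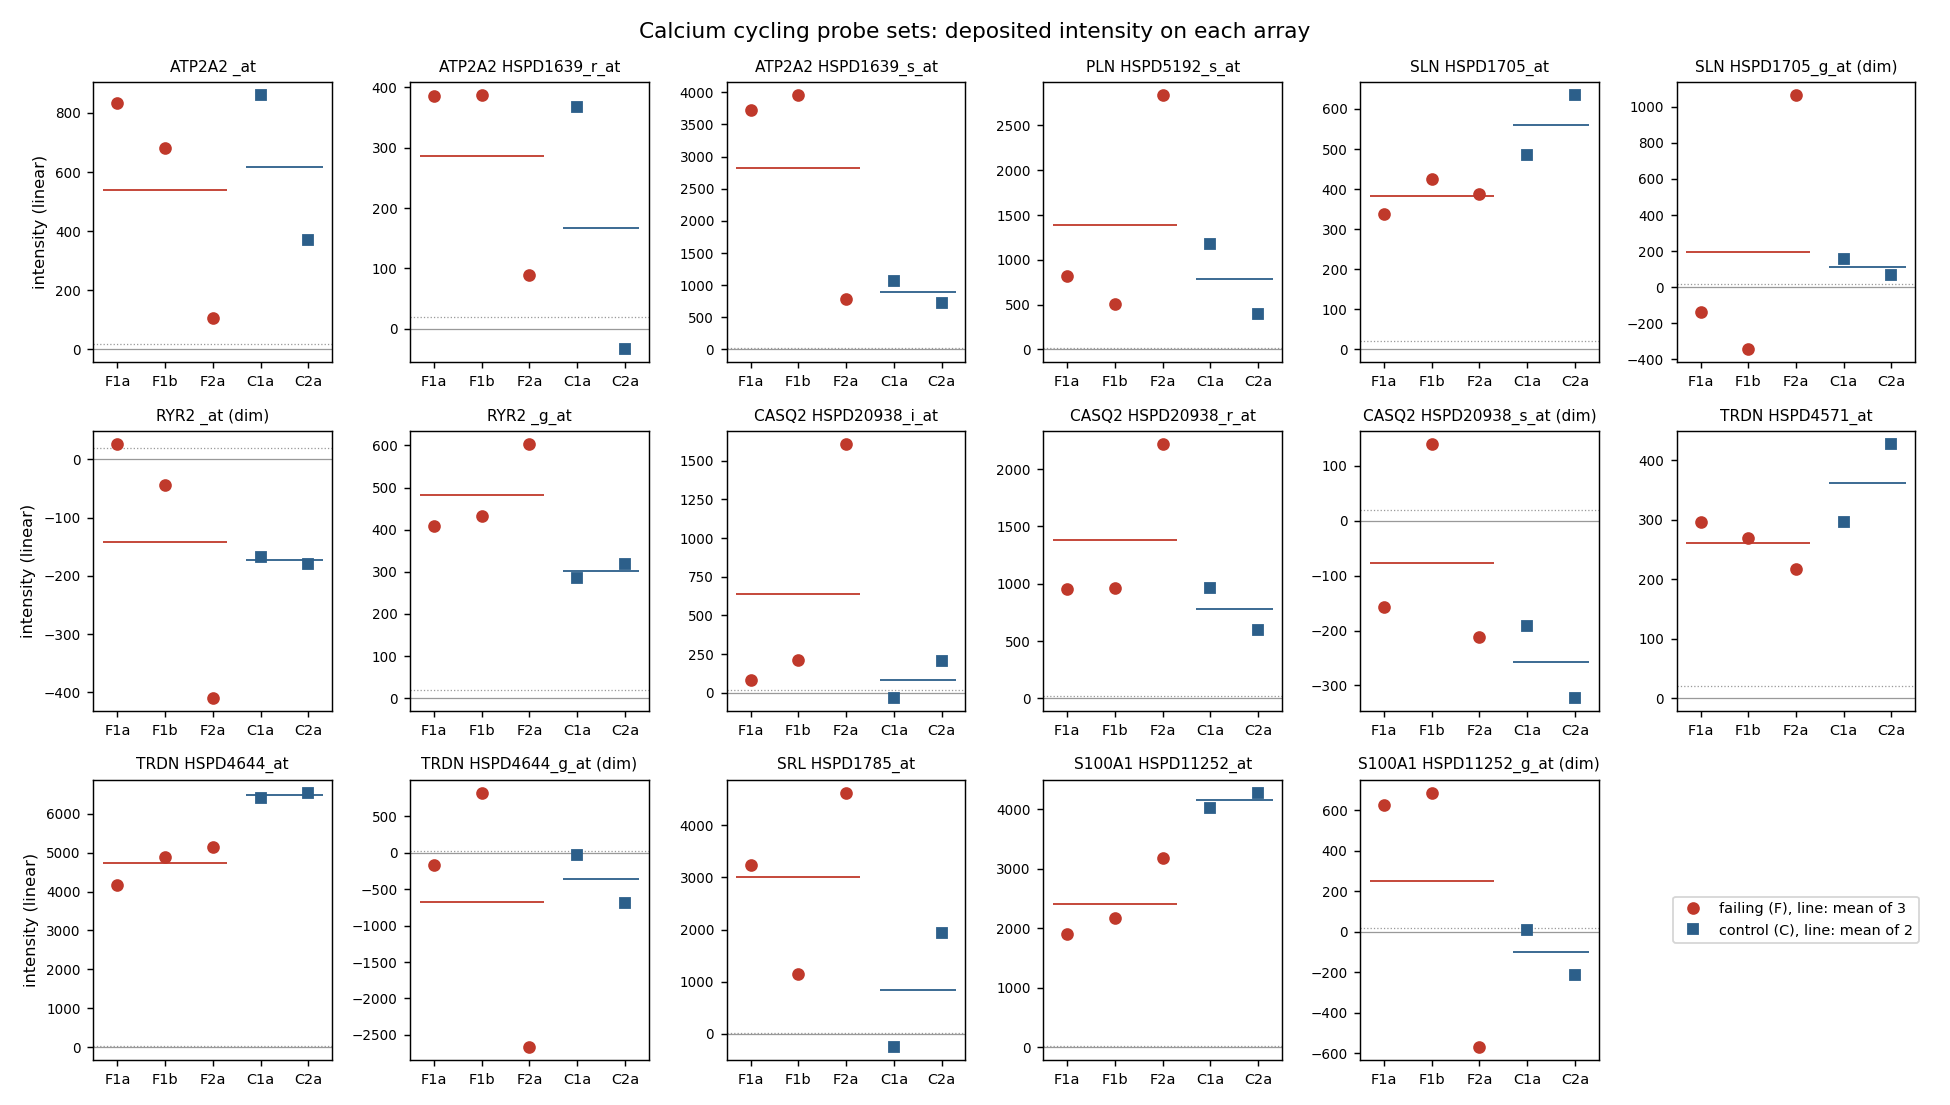
Deposited linear intensity (y axis, a separate scale in each panel) of all 17 probe sets on the 3 failing arrays (F1a, F1b, F2a, red circles) and the 2 control arrays (C1a, C2a, blue squares), with horizontal lines at the group means, a grey line at 0 and a dotted line at the floor of 20. The failing points lie below both control points for S100A1 HSPD11252_at, SLN HSPD1705_at and the tested TRDN probe sets and above them for RYR2 _g_at, and failing 2a departs from failing 1a and 1b in the ATP2A2 and PLN panels.

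ATP2A2 encodes the pump that refills the store. Its brightest probe set, HSPD1639_s_at, had intensities of 3732, 3957 and 783 on failing 1a, 1b and 2a, against 1071 and 730.1 on control 1a and 2a. Failing 1a and 1b were far above both control arrays and failing 2a lay between them, so the groups overlapped. The difference on the log2 scale, after raising intensities below 20 to that floor, was 1.35 ± 0.79 (SE, adjusted p = 0.666), with a 95% interval from −0.63 to 3.34. Without failing 2a it was 2.12 ± 0.27, or 4.35-fold (adjusted p = 0.0792), on failing arrays that may be repeats of one pool.

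The ATP2A2 probe set with the plain suffix _at read 834, 681 and 105 on failing 1a, 1b and 2a, against 860.5 and 371 on control 1a and 2a. Failing 1a and 1b thus lay within the control range, and failing 2a was the lowest of all arrays. The log2 difference was −0.53 ± 1.11 (SE, adjusted p = 0.897), and 0.41 ± 0.54 without failing 2a. Probe set HSPD1639_r_at read 385, 387 and 88.8 on the failing arrays, against 367 and −34.1 on control 1a and 2a. Its groups overlapped, and because control 2a was below the floor its log2 difference of 1.47 ± 1.69 depends on the floor, and a fold would mean little. Without failing 2a that difference was 2.17 ± 1.59. The 3 probe sets shared one feature, a failing 2a value below failing 1a and 1b by 2.12 to 2.84 on the log2 scale.

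PLN encodes phospholamban, the main brake on SERCA2 in ventricular muscle. Its single probe set, HSPD5192_s_at, had intensities of 818, 509 and 2838 on failing 1a, 1b and 2a, against 1174 and 399 on control 1a and 2a. Failing 1a and 1b lay within the control range and failing 2a was 2.14 above their mean on the log2 scale. The log2 difference was 0.63 ± 0.90 (SE, adjusted p = 0.857), with a 95% interval from −1.64 to 2.89, and it was −0.09 ± 0.67 without failing 2a. The control arrays themselves differed 2.94-fold at this probe set, so a change of that size could not be told from the spread.

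The ratio of PLN to ATP2A2 was taken within each array as the PLN log2 intensity minus the mean over the 3 ATP2A2 probe sets, and only its difference between arrays can be read. It was −0.38, −0.99 and 3.87 on failing 1a, 1b and 2a, against 0.75 and 1.18 on control 1a and 2a. Failing 1a and 1b lay below both control arrays and failing 2a above both. The group means were 0.83 ± 2.65 in failing and 0.97 ± 0.30 in control myocardium (SD, n = 3 and 2), a difference of −0.14 with p = 1 in the two-sided exact permutation test, where 2 against 3 arrays cannot go below 0.2. Without failing 2a the difference was −1.65 (exact permutation p = 0.333, the smallest possible with 2 against 2 arrays). The sign of the difference was not stable, and turned to 0.47 without failing 1a, 0.78 without failing 1b and 0.08 without control 2a.

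The places of the failing arrays were the same with each ATP2A2 probe set, while the order of the control arrays was not. Against HSPD1639_s_at alone the log2 ratio was −2.19, −2.96 and 1.86 on failing 1a, 1b and 2a, against 0.13 and −0.87 on control 1a and 2a. Against ATP2A2 _at it was −0.03, −0.42 and 4.76 on the failing arrays, against 0.45 and 0.10 on the control arrays. Against HSPD1639_r_at it was 1.09, 0.40 and 4.998 on the failing arrays, against 1.68 and 4.32 on the control arrays. In each case failing 1a and 1b had the lowest ratios and failing 2a the highest. All these ratios share the same PLN values, so they are not independent of each other. The mean difference nevertheless changed sign with the probe set, being −0.73 with HSPD1639_s_at, 1.16 with ATP2A2 _at and −0.84 with HSPD1639_r_at (exact permutation p = 0.8, 1 and 0.8), and 0.22 when the probe set with a floored array was left out.

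**Figure D2:**
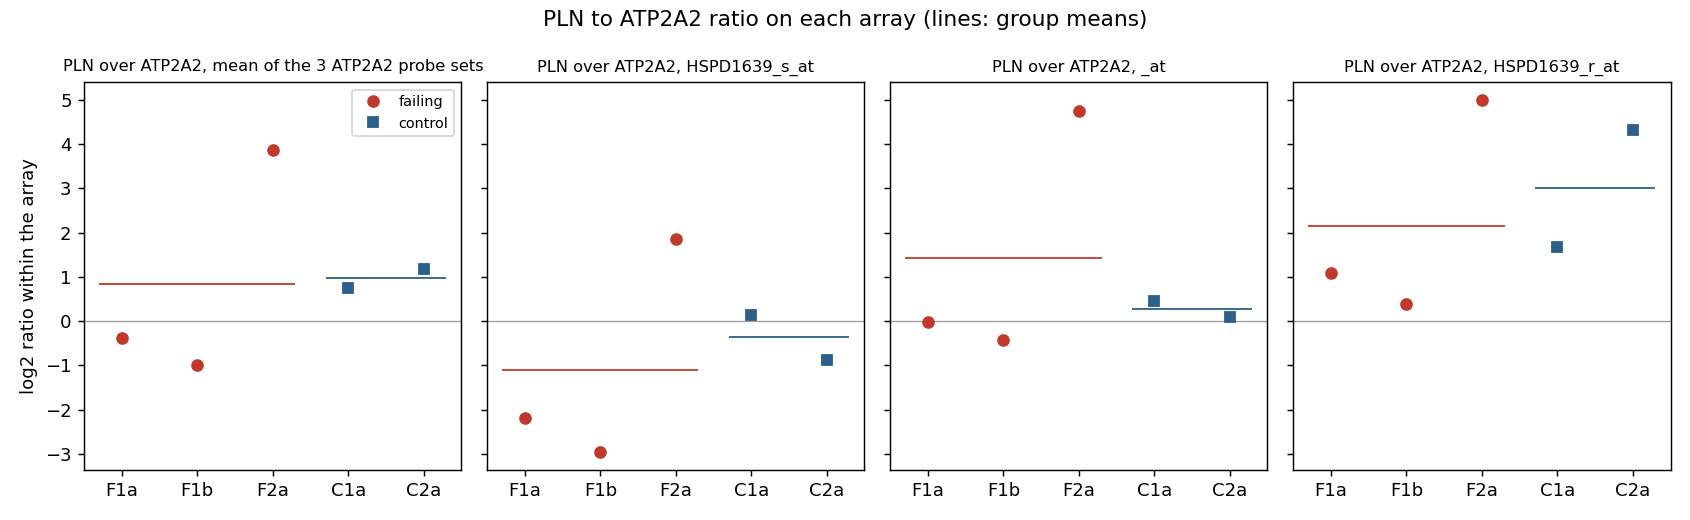
Log2 ratio of PLN to ATP2A2 within each array (y axis) for the mean of the 3 ATP2A2 probe sets and for each alone, on failing arrays (F, red circles) and control arrays (C, blue squares), with lines at the group means. In every panel failing 1a and 1b are the lowest points and failing 2a the highest, while the failing mean lies below control in 3 panels and above it for ATP2A2 _at.

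SLN encodes sarcolipin, the pump inhibitor known mainly from atrial and skeletal muscle. Probe set HSPD1705_at had intensities of 337, 426 and 388 on failing 1a, 1b and 2a, against 486 and 635 on control 1a and 2a. All failing values were below both control values. Its log2 difference was −0.54 ± 0.58 (SE, adjusted p = 0.827), or 0.688-fold, and −0.55 without failing 2a. The dimmer probe set HSPD1705_g_at was not tested and read −139, −345 and 1065 on the failing arrays, against 158 and 67.8 on the control arrays, so failing 1a and 1b were below control and failing 2a above. Of 9 atrial marker genes 2 were on the array, with summed intensities of 160.1 to 428 on the failing arrays and 232 to 382 on the control arrays, and their part in the SLN values was not tested.

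RYR2 forms the release channel. Its probe set with the suffix _g_at had intensities of 409, 434 and 604 on failing 1a, 1b and 2a, against 285 and 318 on control 1a and 2a. Every failing array was above both control arrays, the nearest by 90.6 intensity units. The fitted log2 difference was 0.66 ± 0.62 (SE, adjusted p = 0.810), with a 95% interval from −0.90 to 2.21, and 0.48 ± 0.49 without failing 2a. The other RYR2 probe set was too dim to be tested, with 26.7, −44.3 and −410.4 on the failing arrays, against −167 and −179 on the control arrays.

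CASQ2 encodes the calcium buffer of the store. Its brightest probe set, HSPD20938_r_at, read 957, 965 and 2221 on failing 1a, 1b and 2a, against 961 and 596 on control 1a and 2a. Failing 1a and 1b were level with control 1a, and failing 2a was the highest array. Its log2 difference was 0.75 ± 0.55 (SE, adjusted p = 0.739) and 0.34 ± 0.37 without failing 2a. Probe set HSPD20938_i_at had the same outlying array, with 84.4, 214 and 1609 on the failing arrays, against −36.0 and 206 on the control arrays. Its log2 difference of 2.26 ± 1.82 (adjusted p = 0.766) depends on the floor through control 1a. It was 1.06 ± 1.61 without failing 2a, and ran from 0.57 to 3.94 over fits that each left out 1 array. The third probe set, HSPD20938_s_at, was below 0 on 4 arrays and read 139.8 on failing 1b, and was not tested.

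TRDN encodes triadin, which anchors calsequestrin beside the release channel. Probe set HSPD4644_at had intensities of 4177, 4886 and 5152 on failing 1a, 1b and 2a, against 6416 and 6542 on control 1a and 2a. The failing arrays were all below control, and here failing 2a was the failing array nearest to control. The means were 4739 ± 504 in failing and 6479 ± 89 in control myocardium (SD, n = 3 and 2). On the log2 scale they differed by −0.46 ± 0.19 (SE), 0.729-fold (adjusted p = 0.522 in limma), with a 95% interval from −0.94 to 0.03, and by −0.52 ± 0.15 without failing 2a.

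A second TRDN probe set, HSPD4571_at, gave nearly the same log2 difference, −0.46 ± 0.74 (SE, adjusted p = 0.874), or −0.34 without failing 2a. It read 296, 269 and 217 on failing 1a, 1b and 2a, against 297 and 427 on control 1a and 2a. The failing values were again all lower, but failing 1a and control 1a differed by under 1 intensity unit. The third, HSPD4644_g_at, was below 0 on every array except failing 1b, where it read 822, and was not tested.

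SRL encodes sarcalumenin, a calcium-binding glycoprotein of the store. Its single probe set, HSPD1785_at, had intensities of 3244.5, 1146 and 4624 on failing 1a, 1b and 2a, against −252 and 1940.2 on control 1a and 2a. Failing 1b lay between the control arrays, so the groups overlapped, and the control arrays disagreed on whether there was any signal. The log2 difference on floored values was 3.71 ± 1.94 (SE, adjusted p = 0.619) and 3.29 without failing 2a, and it ran from 0.41 to 7.01 over fits that each left out 1 array, so no fold is given.

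S100A1 encodes the calcium sensor that acts on both pump and channel. Probe set HSPD11252_at had intensities of 1898, 2165 and 3179 on failing 1a, 1b and 2a, against 4029 and 4279 on control 1a and 2a. All failing arrays were lower than both control arrays, and failing 2a was the nearest to them. The means were 2414 ± 676 in failing and 4154 ± 177 in control myocardium (SD, n = 3 and 2). The log2 difference was −0.82 ± 0.30 (SE), 0.567-fold, with a 95% interval from −1.57 to −0.07. Its p of 0.0369 in limma became 0.496 after Benjamini-Hochberg adjustment over 2301 probe sets. Without failing 2a the difference was −1.03 ± 0.17 (adjusted p = 0.120).

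The second S100A1 probe set did not follow the first. HSPD11252_g_at read 628, 686 and −569 on failing 1a, 1b and 2a, against 9.6 and −212 on control 1a and 2a. Failing 1a and 1b were above control there, where the brighter probe set was lowest, but both control arrays lay below the floor and the probe set was not tested.

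Counted over probe sets, limma called 0 of the 12 tested at an adjusted p under 0.05, where 0.0869% of all 2301 tested were called. At an unadjusted p under 0.05 there was 1 (S100A1), against 9.47% of all tested. The adjusted p-values of the 12 ran from 0.496 to 0.897. Without failing 2a, 0 passed the adjusted threshold, against 0.782% of all tested, and 3 had an unadjusted p under 0.05 (ATP2A2 HSPD1639_s_at, S100A1 HSPD11252_at and TRDN HSPD4644_at), against 15.9%. The failing values lay below both control values in 4 of the 12, from 3 genes, where 11.5% of all tested probe sets did so, and above in 1 of 12, against 18.3%. Over all 17 probe sets the counts were the same 4 and 1, against 13.4% and 13.1% of the 4601 without the filter. Since the 12 come from only 8 genes and include both TRDN probe sets, these shares are given as a description.

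The median log2 difference of the 12 was 0.64, and that of all tested probe sets was 0.11. It was 0.38 for the 12 without failing 2a. The median of all tested probe sets moved to −0.04 after quantile normalization and to −0.10 after scaling to the 75th percentile, so small differences depend on the scale. Relative to the median of all, S100A1 HSPD11252_at was at −0.92, TRDN HSPD4644_at at −0.56 and RYR2 _g_at at 0.55. None of the 12 changed sign under either other scaling.

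**Figure D3:**
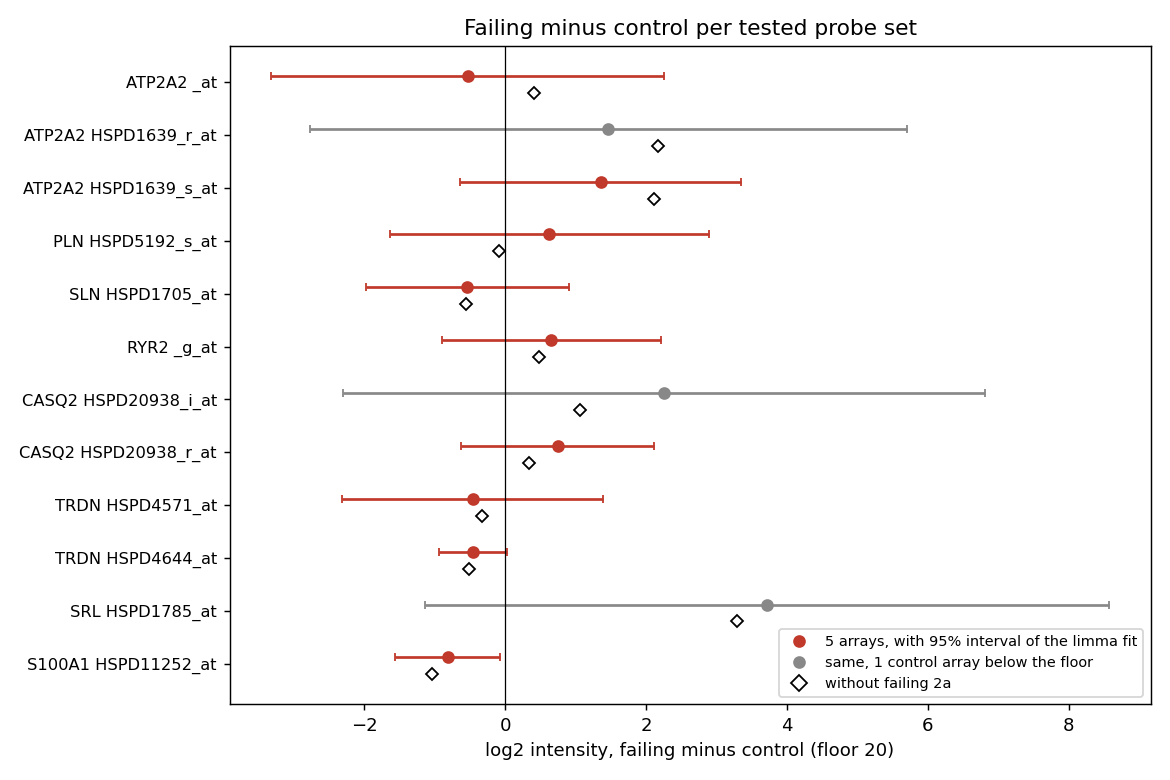
Log2 intensity of failing minus control myocardium (x axis) for the 12 tested probe sets, as circles with the 95% interval of the limma fit on 5 arrays (grey where 1 control array was below the floor) and as open diamonds without failing 2a. The interval of S100A1 HSPD11252_at, from −1.57 to −0.07, is the only one that does not cross 0 before adjustment, and PLN and ATP2A2 _at change sign without failing 2a.

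Agreement between probe sets could be examined for 3 genes with more than 1 tested probe set, in 5 pairs. The names of HSPD1639_r_at and HSPD1639_s_at differ only in the suffix, as do those of the tested CASQ2 probe sets. Whether such pairs share probes was not tested, so they may not be independent. The direction was the same in 3 pairs and opposite in 2, both of which set ATP2A2 _at against another ATP2A2 probe set. The log2 difference between ATP2A2 _at and HSPD1639_s_at was −2.16, −2.54 and −2.90 on failing 1a, 1b and 2a, against −0.32 and −0.98 on control 1a and 2a. The groups did not overlap, and their means differed by −1.89, with an exact permutation p of 0.2, the smallest the design allows, and 0.5 after adjustment over the 5 pairs. For HSPD1639_r_at against HSPD1639_s_at the means differed by 0.11 (exact permutation p = 0.8). The control arrays of this pair were far apart, at −1.55 on control 1a and −5.19 on control 2a. With a floor of 100 the means differed by −0.99, so the small difference does not show agreement. Control 2a was below the floor at HSPD1639_r_at, and control 1a was below it at CASQ2 HSPD20938_i_at. For the TRDN pair the difference was −0.01 (exact permutation p = 1), and for the CASQ2 pair it was 1.51 (exact permutation p = 0.6).

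For ATP2A2 and CASQ2 the tested probe sets shared the place of failing 2a among the arrays. It was the lowest failing array in all 3 ATP2A2 probe sets and the highest array in both tested CASQ2 probe sets. The tested TRDN probe sets differed in this, with failing 2a the lowest failing array at HSPD4571_at and the highest at HSPD4644_at. Over the 12 tested probe sets, the median absolute log2 distance of failing 2a from the mean of failing 1a and 1b was 1.24, against 0.21 between failing 1a and 1b and 0.62 between the control arrays. For all tested probe sets the same medians were 0.89, 0.32 and 0.42. Failing 2a was the highest or lowest of the 5 arrays in 7 of the 12, and in 68.1% of all tested probe sets.

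Other genes of calcium handling were taken from 4 lists with 61 entries in all. The array held 27 of them, and 18 were bright enough to test. Of these 18, 0 passed the adjusted threshold in limma in either direction. At an unadjusted p under 0.05, 1 was higher and 0 lower, where 6.13% and 3.35% of all tested probe sets were. In 6 of the 18 genes the failing values were all above control and in 2 all below, where 18.3% and 11.5% of all tested probe sets were. Their median log2 difference was 0.24, beside 0.11 for all tested probe sets. Without failing 2a these medians were 0.12 and 0.08.

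The largest moderated statistic among them belonged to a phosphatase. PPP2CA, the catalytic subunit of protein phosphatase 2A, which removes phosphate from calcium cycling proteins among many others, read 6328, 6522 and 5240 on failing 1a, 1b and 2a, against 3303 and 3445 on control 1a and 2a. All failing arrays were above control, with a log2 difference of 0.83 ± 0.20 (SE), 1.78-fold (adjusted p = 0.305 in limma). Its other probe sets had 1738, 1518 and 1464 on the failing arrays, against 1130 and 921 on the control arrays, and 1966, 2054 and 2338, against 938 and 631. All 3 PPP2CA probe sets thus separated the groups upward.

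PPP1CA, a catalytic subunit of protein phosphatase 1, the enzyme that dephosphorylates phospholamban, had 1854, 1656 and 1899 on the failing arrays, against 1214 and 911 on the control arrays. The groups did not overlap, and the log2 difference was 0.77 ± 0.31 (SE, adjusted p = 0.522). Its second probe set overlapped, with 1193, 1293 and 361 on the failing arrays, against 480.4 and 621 on the control arrays. PPP1R1A, inhibitor 1 of that phosphatase, had 303, 287 and −347 on the failing arrays, against 782 and 1011 on the control arrays. All failing arrays were lower, and since failing 2a was below the floor the log2 difference of −2.89 ± 1.45 (adjusted p = 0.597) depends on it, and was −1.59 without failing 2a.

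Among partners of the store and its junction, 7 of 13 list genes were on the array and 5 were tested, 2 with a log2 difference above 0 and 3 below. FKBP1A, which encodes a binding protein of ryanodine receptors, had 0.25 ± 0.20 (SE, adjusted p = 0.767). Sorcin, SRI, a calcium-binding regulator of the release channel, had 0.24 ± 0.30 (adjusted p = 0.845), with all failing arrays above control, while its second probe set overlapped, with 335, 422 and 1247 on the failing arrays, against 574 and 184 on the control arrays. Skeletal calsequestrin, CASQ1, had intensities of 716, −286 and 957 on the failing arrays, against 1255 and 983 on the control arrays, all failing arrays lower. Its second probe set was not tested and overlapped, with −577, 911 and −846 on the failing arrays, against −721 and 949 on the control arrays. STRIT1, which encodes a small peptide that relieves the pump from phospholamban, was added for its role after its values were seen and had 336, 155 and 399 on the failing arrays, against 535 and 279 on the control arrays, with overlapping groups.

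The skeletal ryanodine receptor gene RYR1 was the only tested one of 7 other pump and channel genes. Its brightest probe set, HSPD299_i_at, read 1278.5, 1876 and 4840 on failing 1a, 1b and 2a, against 954 and 1001 on control 1a and 2a. As with RYR2 _g_at, every failing array was above control and failing 2a the highest. The log2 difference was 1.21 ± 0.61 (SE, adjusted p = 0.597), or 0.66 without failing 2a. Probe set HSPD299_r_at had the same order of groups, but control 2a read −606 there. HSPD299_s_at was not tested and had −526, −591 and −844 on the failing arrays, against −288 and −405 on the control arrays. Whether human RYR1 and RYR2 probes tell the dog transcripts apart was not tested. Of the surface membrane list, 5 of 14 genes were on the array and 4 were tested. ATP2B2, a plasma membrane calcium pump, had 0.76 ± 0.49 (adjusted p = 0.687) with all failing arrays above control. CACNB1, a calcium channel beta subunit, had 0.52 ± 0.55 (adjusted p = 0.827) with overlap, and 0.25 without failing 2a. CACNA2D1, the auxiliary alpha-2-delta subunit of calcium channels, had 136, 163 and 1453 on the failing arrays, against −137 and 116 on the control arrays, all failing arrays higher.

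**Figure D4:**
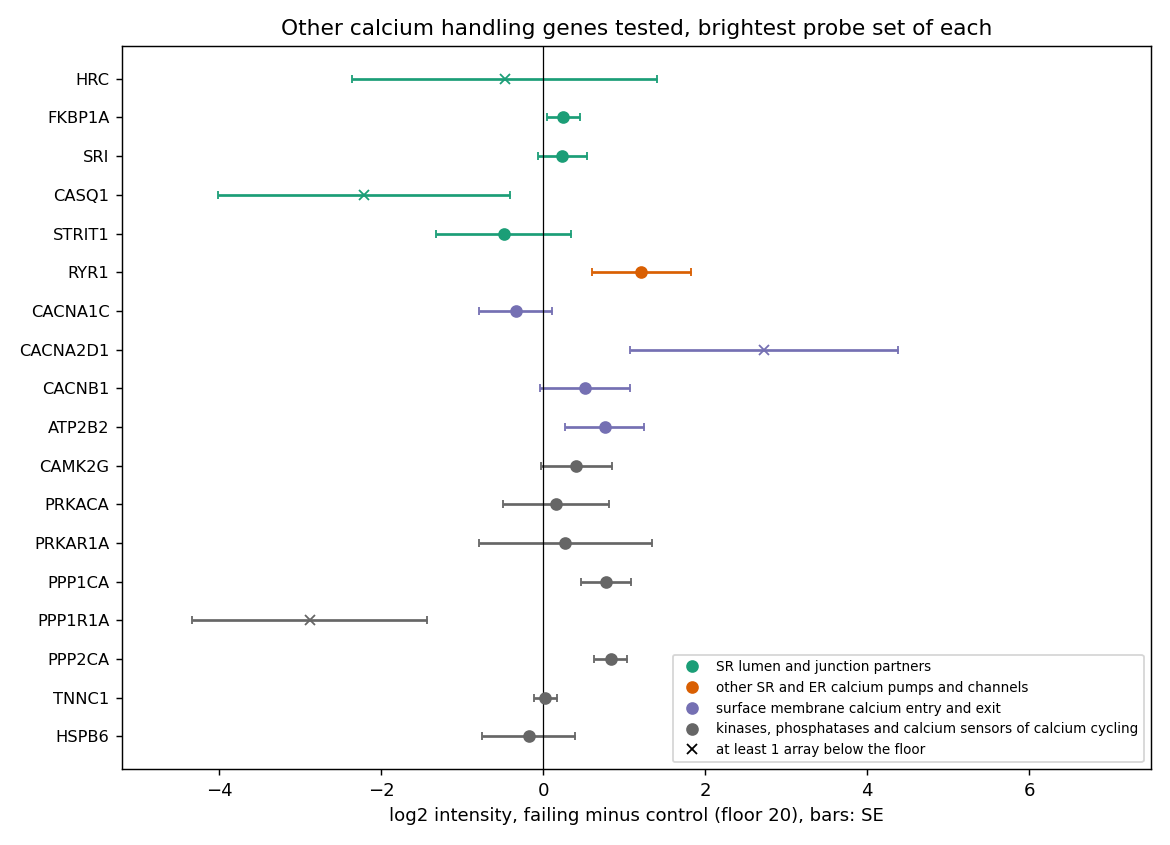
Log2 intensity of failing minus control myocardium (x axis, bars show the SE of the limma fit) for the 18 other calcium handling genes tested, coloured by list, each at its brightest probe set, with crosses where at least 1 array was below the floor. PPP2CA at 0.83 and PPP1CA at 0.77 have short bars away from 0, TNNC1, cardiac troponin C, lies at 0.02, and the genes with crosses have the longest bars.

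The probe sets whose profiles over the 5 arrays were most like those of the calcium cycling genes were found by the root mean square difference of log2 profiles, each centred on its own mean. For TRDN HSPD4644_at the nearest were FABP3, the heart fatty acid binding protein (0.07), MYH6, the alpha myosin heavy chain (0.08), and COX5B, a cytochrome c oxidase subunit (0.09). MYH6 read 29129, 38368 and 36014 on failing 1a, 1b and 2a, against 49704 and 50189 on control 1a and 2a, the same order of groups as TRDN. For S100A1 they were HINT2, a mitochondrial hydrolase (0.08), TMEM126A (0.12) and RPL32 (0.13), and for SLN they were RPL28 (0.06), RPL30 (0.09) and SNRNP35 (0.09). RPL28, RPL30 and RPL32 encode proteins of the large ribosomal subunit.

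For RYR2 _g_at the nearest profiles were YWHAE (0.05), HNRNPK (0.08) and PDLIM3 (0.08). For ATP2A2 HSPD1639_s_at they were DDX5 (0.33), TMEM134 (0.37) and RASGRP2 (0.40), and for PLN they were SHC1 (0.26), ENOX2 (0.29) and APBA3 (0.31). CASQ2 HSPD20938_r_at was nearest to CCNA2 (0.06), MLST8 (0.10) and HSBP1 (0.13). For SRL the smallest value was 0.54, for SRPRA, which like SRL was below the floor on control 1a. These distances are to be read beside the spread of each probe set over the arrays. The root mean square about its own mean was 2.85 for SRL, 1.08 for ATP2A2 HSPD1639_s_at and 0.25 for TRDN HSPD4644_at. With 5 arrays this likeness is a description only.

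Marker genes of the muscle cells and of other cells, and a sign of RNA quality, were set beside these differences. The 11 tested cardiomyocyte markers had a median log2 difference of −0.04, with 3 higher than both control values on each failing array and 4 lower (18.3% and 11.5% of all tested probe sets), and the summed intensity of the 12 on the array was 213170 to 266415 on the failing arrays and 207886 to 248195 on the control arrays. No cardiomyocyte marker on the array was below the floor on all arrays. The array held 3 of 5 listed ventricular markers. They summed to 24790 to 25717 on the failing arrays and 34971 to 38201 on the control arrays. MYL3 made up most of these sums, at 17418 to 22390 on the failing arrays and 25750 to 31297 on the control arrays. MYL2 overlapped, with 5849, 7597 and 3492 on failing 1a, 1b and 2a, against 7578 and 9676 on control 1a and 2a. The 7 endothelial markers on the array, of 10 listed, summed to 6983 to 12706 on the failing arrays and 4988 to 6110 on the control arrays. For the GAPDH array control, the 3′ over 5′ signal ratio, a sign of RNA and labelling quality, was 1.32 to 1.44 on the failing arrays and 2.15 to 2.32 on the control arrays. The part of these measures in the S100A1, TRDN and RYR2 differences was not tested.

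The 8 fibroblast markers on the array, of 9 listed, summed to 4627 to 7927 on the failing arrays and 2991 to 4724 on the control arrays. The 8 fast skeletal muscle markers on the array, of 10, summed to 5315 to 9361 on the failing arrays and 4164 to 4344 on the control arrays, a list that holds RYR1 and CASQ1 as well, and its defining gene PVALB was below the floor on all arrays. The array held 5 of 8 smooth muscle and pericyte markers. They summed to 2896 to 3453 on the failing arrays and 3930 to 4141 on the control arrays. Of these, CNN1 and PDGFRB were below the floor on all arrays. The sums include values below 0, since LMOD1 alone read 5139 on failing 2a, where the sum was 3233. The 2 tested markers went opposite ways, TAGLN 0.496-fold and LMOD1 1.94-fold. The 5 blood markers on the array, of 9, summed to 4325 to 7068 on the failing arrays and 3440 to 4660 on the control arrays, with CD163 below the floor on all arrays.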

How the data were processed

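The deposited table holds a linear intensity for every probe set on each of 5 arrays. What the authors did to make it (scanner software, background, scaling) is not given in the sources used here, but the deposited intensity values have the same trimmed mean on every array. Of 4653 probe sets, 52 array controls were left out. Of the other 4601, 3724 had 1 gene symbol, 72 several and 805 none in the platform annotation, which pairs them with human genes. The table had 0 columns of other samples and names no genome build.

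Values below 20 were set to 20 before log2 was taken. Probe sets with a mean at or above the median of 7.13 (an intensity of 140.1) were tested, 2301 in all. No fold is given where any array was below the floor. Failing and control arrays were compared by limma 3.58.1 under R 4.3.3, using lmFit and trended eBayes. Two-sided p-values received Benjamini-Hochberg adjustment over all tested probe sets, and 0.05 was the threshold. Ratios and pairs of probe sets were compared by two-sided exact permutation tests. The code was tested on simulated data.

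The 8 genes and the lists were chosen with earlier results of these data known. The members were named whatever their values. From each list of other calcium handling genes up to 3 tested genes with the largest moderated statistic were named, each at its brightest probe set, and for each member the 3 named non-member probe sets of most similar profile. Alternatives covered the floor, the scaling, the filter, the unit of the test, the variance model, the replicate number and leaving out each array.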

Additional observations from a re-analysis of the deposited data

How the results depend on the processing

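The 12 tested probe sets were refitted under 15 alternatives, of which 1 probe set per gene holds only the brightest of each gene. Of the resulting 176 values, 171 kept their direction and their side of the threshold, 0 passed it (the lowest adjusted p was 0.0792) and 5 reversed. Leaving out 1 array gave all 5: ATP2A2 _at reached 0.41 without failing 2a and 0.07 without control 1a (range −1.14 to 0.41), ATP2A2 HSPD1639_r_at −0.63 without control 2a (range −0.63 to 3.56), and PLN −0.09 without failing 2a and −0.15 without control 2a (range −0.15 to 1.41). The number of the 12 at an unadjusted p under 0.05 ran from 0 to 3. The count of called probe sets over the whole table, 2, became 4 with a floor of 100, 6 without the filter, 6 without the intensity trend, 1 with 1 probe set per gene, 0 with failing 1a and 1b averaged, and 0 to 18 when 1 array was left out. The difference in the PLN to ATP2A2 ratio kept its sign in 8 of 16 alternatives. Not all of these are distinct. The brightest probe set is HSPD1639_s_at alone (−0.73), and averaging failing 1a and 1b gave the same 0.62 as the replicate block. The ratio difference reversed to 0.23 with a floor of 100 and to 0.62 with failing 1a and 1b averaged. It ran from −1.65 to 0.78 when 1 array was left out. In settings chosen after seeing the data it reversed to 1.16 with ATP2A2 _at alone and to 0.22 without the probe set below the floor. The difference between ATP2A2 HSPD1639_r_at and HSPD1639_s_at reversed to −0.99 with a floor of 100. The cause of these reversals was not tested.

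Failing and control arrays share the numbers 1 and 2, but nothing says that a number marks a shared batch. The deviations of same-numbered arrays from their group means had r = 0.04 across probe sets. That r rests partly on failing 2a, which stood apart, so it cannot show whether the number marks a batch. With the number as a replicate block, 0 probe sets were called and the ratio difference was 0.62. The number of arrays limits the precision of all values, and 3 of the 12 tested probe sets had an array below the floor.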
